A study of Mus musculus with 5 samples.

Results

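Uhrf1, its paralog Uhrf2, the DNA methyltransferase genes Dnmt1, Dnmt3a, Dnmt3b and Dnmt3l and the Tet genes Tet1, Tet2 and Tet3 were followed by name, 9 of the 23997 genes with a measured transcript level in the mouse cerebral cortex at embryonic day 16 (E16). They were chosen by their function and not by their values here, although earlier results of these data were known. RNA was sequenced from the entire dissected cortex of 2 Uhrf1 conditional knockout embryos (cKO, libraries MG18 and MG19, labelled Uhrf1 -/-) and 3 control embryos (libraries MG15, MG16 and MG17, labelled Uhrf1 +/-), all on a C57BL/6 background. Both groups carried Cre from the Emx1 locus, which acts in the dorsal telencephalon, and the floxed exon was lost from both alleles in the cKO and from 1 allele in the control, so the controls were heterozygous and not wild type. Interneurons that migrate in from the ventral telencephalon, microglia, vessels, blood and meninges lie outside the Emx1 lineage and keep their Uhrf1. The study calls the libraries biological replicates.

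In vertebrates, DNA methylation sits mostly on cytosines of CG pairs. After replication the new strand carries no methyl groups. UHRF1 binds such half-methylated DNA and brings in DNMT1, the maintenance methyltransferase, which copies the pattern of the old strand. DNMT3A and DNMT3B add methyl groups to unmethylated sites, with DNMT3L as a cofactor that has no catalytic activity of its own and is best known from germ cells. The TET enzymes oxidise 5-methylcytosine to 5-hydroxymethylcytosine, a mark that is abundant in neurons and a step towards removal of the methyl group. UHRF2 shares the domains of UHRF1 and binds hydroxymethylated DNA. In the embryonic cortex Uhrf1 belongs to the dividing progenitors of the ventricular zone, whereas Dnmt1 is also made in neurons.

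The exon that Cre removes sets what the Uhrf1 level can report. Uhrf1 lies on the plus strand of chromosome 17 from 56303337 to 56323486 (GRCm38), and its longest coding transcript in GENCODE M21 has 3586 bases. The study names exon 4 as the floxed exon and gives no position for it, and it was taken here to be exon 4 of that transcript. On that reading the exon lies wholly inside the coding sequence and has 161 bases, which is not a multiple of 3. It is shared in full by 4 of the 5 coding Uhrf1 transcripts.

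Exon 4 makes up only 4.49% of the longest transcript. A transcript without it would keep 95.5% of its length and, as far as it is stable, would still be counted as Uhrf1 in a value per gene. The values therefore measure Uhrf1 RNA from intact and deleted alleles together, in cells inside and outside the Emx1 lineage. In whole cortex, fewer cells of a type and less RNA per cell cannot be told apart.

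Uhrf1 was lower in the cKO and was the 1 gene of the 9 that passed the test. FPKM divide the fragments of a gene by its transcript length and by the mapped fragments of the library, and so allow different genes to be set side by side. In the cKO, Uhrf1 stood at 2.75 FPKM in MG18 and 2.61 FPKM in MG19, against 7.24, 13.2 and 13 FPKM in MG15, MG16 and MG17, the control libraries. Both cKO libraries lay below every control library, and the 2 cKO values were close together while MG15 was well under the other controls. The mean level in the cKO came to 24.0% of that in the control. On the log2(FPKM + 0.1) scale, on which all fold changes here are given as cKO minus control, the change was -1.97 (SE 0.28, 95% interval -2.59 to -1.34, adjusted p = 0.00753 by limma with Benjamini-Hochberg adjustment over all genes tested).

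The call rested on having both cKO libraries. The adjusted p of Uhrf1 by limma was 0.254 without MG18 and 0.260 without MG19, with log2 fold changes of -2.0 and -1.93 that stayed close to the value over all libraries. Without MG15, the control with the lowest Uhrf1, the log2 fold change was -2.25 (adjusted p = 0.00116 by limma). Permuting the 5 libraries exactly, two-sided, gave p = 0.1, which this design cannot go below.

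Within each library, Uhrf1 exceeded 27.8% and 27.9% of the tested genes in the cKO, against 45.8%, 59.0% and 59.6% in the control. The steps between low FPKM values put the depth near 8100000 and 9900000 fragments in the cKO libraries and near 36000000, 16000000 and 10000000 in MG15, MG16 and MG17. By that rough depth, the Uhrf1 values rest on about 79 and 93 fragments in the cKO and on about 946, 744 and 480 in the control. By the same estimate MG15, which had the lowest Uhrf1 value of the controls, was the most deeply sequenced library, and its depth was the least certain.

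**Figure D1:**
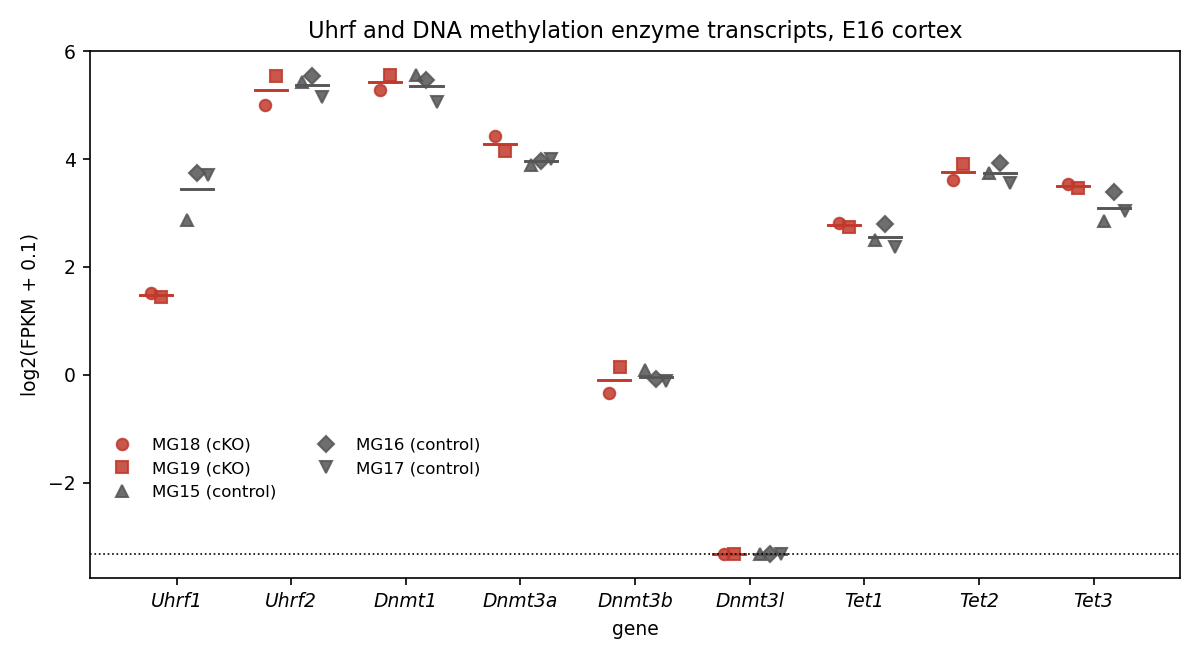
Transcript levels of the 9 genes by library, as log2(FPKM + 0.1), with the 2 cKO libraries in red left of the 3 control libraries in grey. Bars are group means and the dotted line is a value of 0 FPKM. Uhrf1 stands at 2.75 and 2.61 FPKM in the cKO, against 7.24 to 13.2 FPKM in the control, and Dnmt3l is at 0 in every library.

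Uhrf2, the paralog, did not pass the test. It was measured at 32.0 and 46.7 FPKM in the cKO, against 43.1, 46.7 and 35.6 FPKM in the control. The groups overlapped, with the lowest and nearly the highest value both in the cKO. The log2 fold change was -0.10 with a 95% interval of -0.56 to 0.35 (adjusted p = 0.864, limma), so a rise of Uhrf2 above 1.27-fold lies outside that interval. Uhrf2 was the more abundant of the pair in every library. Uhrf1 made up 7.92% and 5.29% of the summed Uhrf1 and Uhrf2 FPKM in the cKO, against 14.4%, 22.1% and 26.7% in the control (two-sided exact permutation test on the shares, p = 0.2). The shares of the groups did not overlap.

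Dnmt1, which encodes the maintenance enzyme that UHRF1 brings to DNA, did not pass the test either. Its level was 39.0 and 47.1 FPKM in the cKO, against 47.3, 44.3 and 33.1 FPKM in the control. The cKO values fell inside the control range. The log2 fold change was 0.06 (95% interval -0.37 to 0.49, adjusted p = 0.920, limma), and its sign changed when MG19 or MG17 was left out.

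Among the genes for de novo methylation, Dnmt3a was the abundant one. It stood at 21.5 and 17.6 FPKM in the cKO, against 14.8, 15.6 and 16 FPKM in the control. Both cKO libraries lay above every control library, MG18 by the wider margin. The ratio of the means, cKO over control, was 1.27, with a log2 fold change of 0.33 and a 95% interval of -0.04 to 0.70. The unadjusted p of Dnmt3a by limma was 0.0735 and the adjusted p was 0.475.

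Dnmt3b was near the lower end of what these libraries could quantify. It was listed at 0.691 and 1.0 FPKM in the cKO, against 0.968, 0.854 and 0.818 FPKM in the control. These values rest on roughly 24 and 43 fragments in the cKO and 152, 58 and 37 in the control. The groups overlapped, the log2 fold change was -0.07, and the 95% interval of -0.79 to 0.66 left room for a change of either sign (adjusted p = 0.948, limma). Dnmt3l, the germ cell cofactor, was listed at 0 in all 5 libraries and was not tested. An exact 0 in such a table can also be a failed estimate.

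The 3 Tet genes encode the dioxygenases that start demethylation. Tet1 was measured at 6.96 and 6.59 FPKM in the cKO, against 5.54, 6.89 and 5.06 FPKM in the control, with overlapping groups and a log2 fold change of 0.22 (95% interval -0.24 to 0.69, adjusted p = 0.694, limma). Tet2 was measured at 12.1 and 15 FPKM in the cKO, against 13.4, 15 and 11.7 FPKM in the control, a log2 fold change of 0.02 (95% interval -0.40 to 0.44, adjusted p = 0.976, limma). Neither gene separated the groups.

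Tet3 did separate them. It stood at 11.5 and 11 FPKM in the cKO, against 7.15, 10.4 and 8.13 FPKM in the control. Both cKO libraries lay above every control library, although MG16 came close. The log2 fold change was 0.41 with a 95% interval of -0.05 to 0.86, an unadjusted p of 0.0748 and an adjusted p of 0.477 by limma, so the difference did not pass the threshold. Tet3 and Dnmt3a kept a positive log2 fold change whichever library was left out, from 0.29 to 0.55 for Tet3 and from 0.19 to 0.47 for Dnmt3a. So did Tet1, whose groups overlapped, from 0.13 to 0.35.

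Of the 8 genes tested, 1 was lower in the cKO and 0 were higher at an adjusted p under 0.05. The limma test called 0.163% of all 14691 genes tested lower and 1.1% higher at that threshold. At the looser rule of an unadjusted p under 0.05 with over 2-fold, the count was again Uhrf1 alone, beside 1.16% of all genes lower and 2.87% higher. Without MG18, and likewise without MG19, 0 of the 8 genes passed the adjusted threshold, while Uhrf1 alone still passed the looser one. Apart from Uhrf1, 0 of the 7 genes had an unadjusted p under 0.05 in limma, beside 11.5% of all genes. In 3 of the 8 genes (Uhrf1, Dnmt3a and Tet3) the 2 groups did not overlap, which was the case in 30.8% of all genes tested, so the separation of Dnmt3a and Tet3 was not out of the ordinary for these libraries. The median log2 fold change was 0.04 over the 8 genes and -0.02 over all genes tested.

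**Figure D2:**
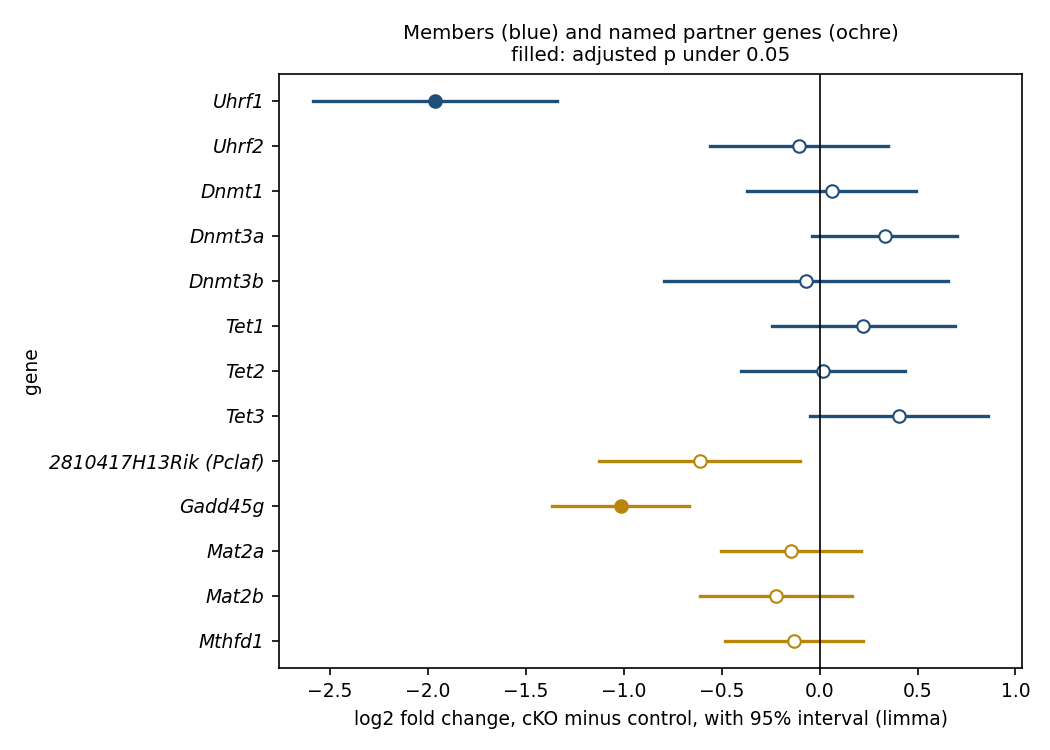
Log2 fold change, cKO minus control, with its 95% interval from limma, for the 8 genes tested (blue) and the 5 partner genes named by rule (ochre). Filled circles passed an adjusted p under 0.05. Uhrf1 at -1.97 and Gadd45g at -1.02 are the 2 filled circles, and every interval of the other 7 blue genes crosses 0.

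Over the 5 libraries Dnmt1 and Uhrf2 were the most abundant of the 9 transcripts and could not be ordered, with means of 42.2 and 40.8 FPKM and Dnmt1 the higher in 3 of 5 libraries. Dnmt3a followed at 17.1 FPKM and Tet2 at 13.4 FPKM. Dnmt3a was above Tet2 in 5 of 5 libraries although their ranges overlapped. Tet3, at 9.63 FPKM, was below Tet2 in every library with separate ranges. Uhrf1 had a mean of 7.76 FPKM over both groups, above Tet1 in the 3 control libraries and below it in the 2 cKO libraries. Tet1, at 6.21 FPKM, was the lowest of the Tet genes, and Dnmt3b, at 0.866 FPKM, was lower than it by a factor of at least 5.72 in each library.

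Within the Dnmt family the shares of both abundant genes overlapped between the groups. Dnmt1 made up 63.7% and 71.7% of the summed Dnmt FPKM in the cKO, against 75.0%, 72.9% and 66.3% in the control. Dnmt3a made up 35.1% and 26.8% in the cKO, against 23.4%, 25.7% and 32.0% in the control. The exact permutation p was 0.5 for each.

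Within the Tet family the shares of Tet2 and Tet3 did not overlap between the groups. Tet3 took 37.6% and 33.8% of the summed Tet FPKM in the cKO, against 27.5%, 32.1% and 32.7% in the control. Tet2 took 39.6% and 46.0% in the cKO, against 51.3%, 46.6% and 47.0% in the control. Tet2 was the largest share in each library. The two-sided exact permutation p was 0.1 for either share, the smallest possible here, and 7 shares were compared over the Uhrf, Dnmt and Tet genes. The summed Tet FPKM overlapped, at 30.5 and 32.6 in the cKO and 26.1, 32.3 and 24.9 in the control.

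**Figure D3:**
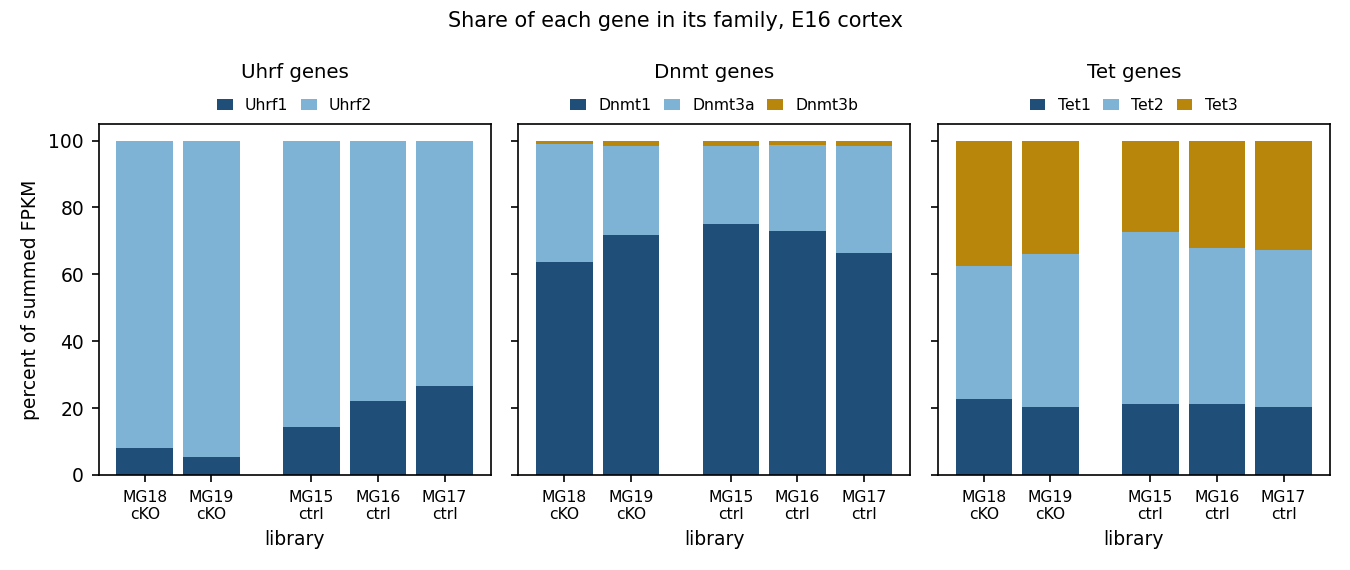
Percent of the summed FPKM of the Uhrf, Dnmt and Tet genes taken by each gene, per library, with the 2 cKO libraries left of the 3 control libraries (ctrl). Uhrf1 makes up 7.92% and 5.29% of its pair in the cKO, against 14.4% to 26.7% in the control, and Tet3 takes 37.6% and 33.8% of the Tet sum in the cKO, against 27.5% to 32.7% in the control.

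Uhrf1 is made in cycling cells, so its level was also set against 22 genes of S phase and cell division, with Dnmt1 and Uhrf2 measured the same way. Of the 22 log2 fold changes 19 were below 0, as were 7670 of 14691 over all genes tested, with a median of -0.27, and 0 passed an adjusted p under 0.05 in limma. At an unadjusted p under 0.05, 2 of the 22 were lower and 0 were higher, beside 11.5% of all genes in either direction. Mki67, the Ki-67 antigen of cycling cells, was measured at 19.9 and 22.6 FPKM in the cKO, against 15.2, 22.8 and 26.8 FPKM in the control. Top2a, the topoisomerase of dividing cells, was measured at 45.4 and 57.0 FPKM in the cKO, against 63.5, 78.3 and 91.5 FPKM in the control (log2 fold change -0.59, adjusted p = 0.282, limma). The replicative helicase subunit Mcm2 had a log2 fold change of 0.15. Mki67 overlapped between the groups and Top2a did not. Of the 22 genes 6 did not overlap, all 6 lower in the cKO, beside 30.8% of all genes tested in either direction.

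Relative to the mean of the 22 genes, the Uhrf1 level was -2.09 and -2.21 on the log2 scale in the cKO, against -0.73, -0.15 and -0.40 in the control. The difference of -1.72 compares with -1.97 for Uhrf1 alone (exact permutation over libraries, p = 0.1). It lay between -1.88 and -1.45 under every alternative tried for it, among them the apical progenitor markers in place of the cycling genes (-1.67). Set against other genes of cycling cells, Uhrf1 thus remained lower in both cKO libraries than in any control library. Dnmt1, measured the same way, was 1.69 and 1.92 in the cKO, against 1.96, 1.59 and 0.95 in the control, with overlapping groups (exact permutation p = 0.6).

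**Figure D4:**
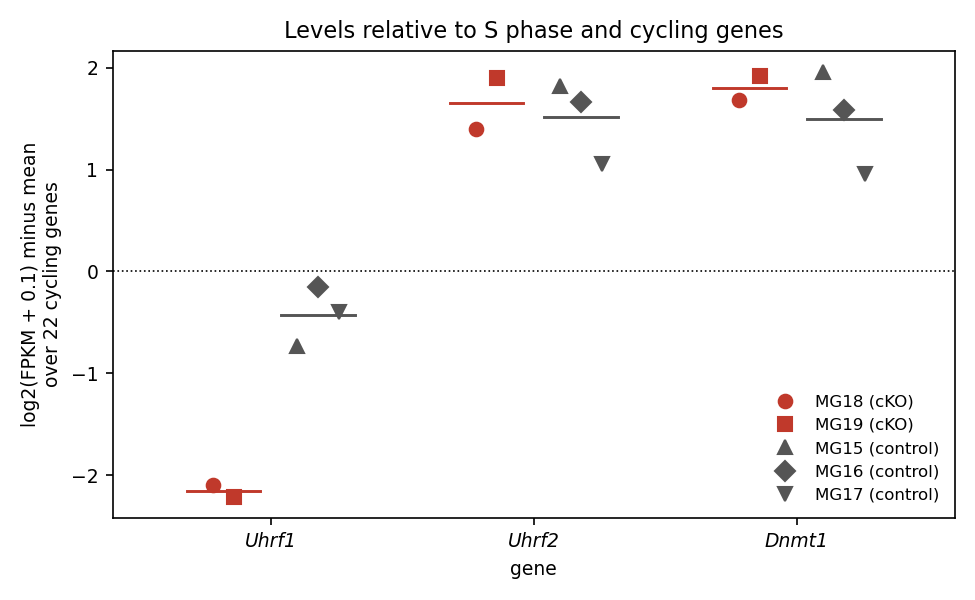
Level of Uhrf1, Uhrf2 and Dnmt1 per library, as log2(FPKM + 0.1) minus the mean of the same over 22 S phase and cycling genes, with cKO libraries in red left of the control libraries in grey. Bars are group means. Uhrf1 lies at -2.09 and -2.21 in the cKO, against -0.73 to -0.15 in the control, while Uhrf2 and Dnmt1 overlap between the groups.

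The libraries had the transcripts of cortex. Tubb3, the neuronal tubulin, was at 1767 and 1533 FPKM in the cKO and at 2061, 1629 and 1579 FPKM in the control. Pax6, the transcription factor of apical progenitors, in which Uhrf1 is made, was at 10.7 and 13.9 FPKM in the cKO, against 16.2, 20.5 and 22.4 FPKM in the control (adjusted p = 0.228, limma). Eomes, which marks intermediate progenitors, was at 26.8 and 25.0 FPKM in the cKO, against 35.5, 49.3 and 52.0 FPKM in the control (adjusted p = 0.117, limma). Both progenitor genes separated the groups without passing the test, as 30.8% of all genes separated them. Of the 9 apical progenitor markers 7 had negative log2 fold changes and 4 did not overlap between the groups, while Sox2 and Slc1a3 were at 0.05 and 0.15. Of the 4 intermediate progenitor markers 4 were negative and 2 did not overlap, with Insm1 at -0.04.

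Markers of cells outside the Emx1 lineage were measured in the same libraries. All 10 ventral and interneuron markers had a positive log2 fold change (median 0.64, 0 at an adjusted p under 0.05), and their summed level was 75.0 to 94.1 FPKM in the cKO, against 56.9 to 62.1 FPKM in the control, with Nkx2-1 below 0.4 FPKM throughout and Isl1 at 0 in MG16. Of 7 microglial markers 4 were positive (35.1 to 35.6 FPKM in the cKO, against 20.6 to 33.8 FPKM in the control), as were 4 of 5 endothelial markers (82.2 to 90.5 FPKM in the cKO, against 71.0 to 104 FPKM in the control) and 5 of 5 meningeal markers (10.3 to 10.8 FPKM in the cKO, against 4.25 to 5.82 FPKM in the control), while 4 of 5 blood cell markers were negative (440 to 503 FPKM in the cKO, against 580 to 916 FPKM in the control). Of these 32 markers 0 passed an adjusted p under 0.05 in limma, while 12 were higher and 2 lower at an unadjusted p under 0.05, beside 11.5% of all genes in either direction. Among those, the globin genes Hba-a1 (higher) and Hba-a2 (lower) varied widely within a group, so their values are uncertain. Hba-a1 was at 34.5 FPKM in MG18 and 1.29 FPKM in MG19, and Hba-a2 at 93.5, 0.0916 and 1.30 FPKM in MG15, MG16 and MG17. The meningeal sum came from different genes in the 2 cKO libraries, with Dcn at 6.90 FPKM in MG18 and 0.997 FPKM in MG19 but Col1a1 at 0.663 and 3.19 FPKM, and of the 5 only Lum separated the groups. The part of these cells in the Uhrf1, Dnmt3a and Tet3 values was not tested.

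The list of partners in maintenance methylation holds the sliding clamp Pcna, the ligase Lig1, the deubiquitinase Usp7, the remodeller Hells and others, and 13 of its 14 genes were tested, while Dppa3 was listed at 0 throughout. In limma 0 passed the adjusted threshold and 1 an unadjusted p under 0.05, beside 11.5% of all genes, and the median log2 fold change was -0.08, with 3 positive and 10 negative. That 1 gene, also lower by over 1.5-fold as 2.63% of all genes were, was 2810417H13Rik, also called Pclaf, whose product binds PCNA. It stood at 10.4 and 15.7 FPKM in the cKO, against 16.7, 18.6 and 24.3 FPKM in the control (log2 fold change -0.61, unadjusted p = 0.0244, adjusted p = 0.358, limma). The cKO libraries lay below the control libraries, MG19 only narrowly.

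Of 16 genes of base excision repair, TET cofactors and related demethylation, 1 passed an adjusted p under 0.05 in limma, and it was lower, as were 0.163% of all genes. At an unadjusted p under 0.05, 1 of the 16 was higher and 2 were lower, beside 11.5% of all genes in either direction. Gadd45g, a stress and differentiation gene whose family has been linked to active demethylation, stood at 13.4 and 12.6 FPKM in the cKO, against 24.3, 27.7 and 27.0 FPKM in the control. Each group was tight and the groups lay far apart. The log2 fold change was -1.02 (SE 0.16, adjusted p = 0.0127, limma). It ranged from -1.07 to -0.97 with 1 library left out. With both cKO libraries kept, the adjusted p by limma was 0.035 without MG15, 0.069 without MG16 and 0.029 without MG17. Leaving 1 cKO library gave log2 fold changes of -1.06 without MG18 and -0.97 without MG19, and the call was lost in each. The size thus held, while the call depended on which libraries were used. Its relatives Gadd45a and Gadd45b had positive log2 fold changes of 0.68 and 0.78 that did not pass (adjusted p = 0.462 and 0.459, limma).

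Methyl groups come from S-adenosylmethionine. Of the 12 genes listed for its synthesis and for the folate cycle, 11 were tested, 0 passed the adjusted threshold in limma and 2 an unadjusted p under 0.05, both higher, beside 11.5% of all genes in either direction. The median log2 fold change was -0.12, and Bhmt was listed at 0. The most abundant were Mat2a, which makes S-adenosylmethionine, its regulatory partner Mat2b, and Mthfd1 of the folate cycle. Their log2 fold changes were -0.15, -0.22 and -0.13, and the cKO and control libraries overlapped for each.

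Promoter sequence was looked at because the 9 genes differ so widely in level, and RefSeq windows of 250 bases before to 50 after a start (GRCm38.p6) were found for 9 of 9. Where a gene has several starts, the window with the most annotated coding starts within 100 bases was used. A tie went to the window with more CG pairs, as for Dnmt3a, whose other tied window held 18. Uhrf1 is shown as the deleted gene and Dnmt3l as the gene listed at 0, with each CG pair in capitals.
Uhrf1 promoter, chr17:56304063-56304312, plus strand: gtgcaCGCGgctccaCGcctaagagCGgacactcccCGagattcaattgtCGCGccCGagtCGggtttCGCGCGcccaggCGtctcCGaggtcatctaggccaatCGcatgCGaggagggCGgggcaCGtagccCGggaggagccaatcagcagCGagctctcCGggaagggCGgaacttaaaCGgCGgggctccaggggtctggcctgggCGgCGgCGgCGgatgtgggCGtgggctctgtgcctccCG
Dnmt3l promoter, chr10:78055085-78055334, plus strand: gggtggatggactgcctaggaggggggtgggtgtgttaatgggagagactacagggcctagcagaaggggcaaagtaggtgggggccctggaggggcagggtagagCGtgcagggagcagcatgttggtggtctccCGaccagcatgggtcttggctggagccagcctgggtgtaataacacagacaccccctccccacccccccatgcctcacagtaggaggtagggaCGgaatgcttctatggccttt

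The 250 bases before the Uhrf1 start held 30 CG pairs and those before the Dnmt3l start held 3. In the full windows of 300 bases the count was 33 for Uhrf1, 33 for Dnmt1, 46 for Dnmt3a, 28 for Uhrf2 and 30 for Dnmt3b. Tet1, Tet2 and Tet3 had 17, 57 and 22 CG pairs and Dnmt3l had 3, beside a median of 7 over all 32851 windows. Dnmt3l, the 1 gene at 0, was also the 1 gene under that median. Dnmt3b, with a transcript level under 2 FPKM, had a window nearly as rich in CG pairs as Uhrf1, so the count did not order the levels.

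Uhrf1 and Dnmt1 shared a feature that the choice of genes did not use. One of the 8-base E2F motifs TTTCCCGC, TTTGGCGC, TTTCGCGC and TTTGCCGC, searched on both strands, was present in their windows and in none of the other 7 used, beside 2.26% of all windows, each window counted once. Every motif holds a CG pair, and both windows held 33 CG pairs beside a median of 7 over all windows. The 2.26% is thus not the share among windows so rich in CG pairs. E2F factors drive genes of the G1 to S phase transition. Uhrf1 held TTTCGCGC, which is in the sequence printed above, and Dnmt1 held TTTGGCGC and TTTCGCGC. The other annotated starts of both genes, with 12 CG pairs for Uhrf1 and 2 and 12 for Dnmt1, held no match. A match of letters is a description of the sequence and not a binding site.

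The genes with the profile nearest to Uhrf1 were found, among 12077 genes averaging 1 FPKM or more, by the root mean square difference of log2 values over the 5 libraries after centring each gene. The nearest 5 were Ooep (0.260), Dynlt1c (0.267), Gstt1 (0.354), Neurod4 (0.387) and Ankle1 (0.424). They were picked for that likeness, so their levels are a description. Ooep, an oocyte gene, stood at 0.452 and 0.493 FPKM in the cKO, against 0.843, 2.45 and 2.28 FPKM in the control, so that MG15 was again the lowest control. Gstt1, a glutathione transferase, stood at 1.58 and 1.21 FPKM in the cKO, against 4.65, 4.49 and 4.82 FPKM in the control. Neurod4, a proneural transcription factor, stood at 1.16 and 1.30 FPKM in the cKO, against 2.18, 3.14 and 4.02 FPKM in the control. Dynlt1c belongs to a family of near-identical dynein light chain copies and its value is uncertain. Of Uhrf2, Dnmt1, Dnmt3a, Tet1, Tet2 and Tet3, Uhrf2 was the closest to Uhrf1, at rank 5400, while Dnmt3b and Dnmt3l were under 1 FPKM and were not compared.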

How the data were processed

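The authors isolated total RNA from E16 cortices, removed ribosomal RNA, made strand-specific libraries, aligned 100-base read pairs to mm10 with TopHat2, kept properly paired and uniquely mapped reads without duplicates, and derived the deposited FPKM of each gene with Cuffdiff and cummeRbund. That filter follows the methods in words, whereas the samtools options printed there read as its reverse, and which was run is not known. Tool versions, the gene annotation and any use of strand were not given in the sources used here. Removal of multiply mapped reads lowers genes with close copies. No counts were used, so no count model was run.

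From the deposited FPKM, log2(FPKM + 0.1) was fitted with limma 3.58.1 (trended eBayes, no covariate) in R 4.3.3 for the 14691 genes averaging 0.1 FPKM or more, without 1243 small RNA names, and p-values were adjusted after Benjamini and Hochberg. The test was checked on simulated data. Single values were compared by exact permutation over libraries, whose p-values measure only the spread between these 5 samples. Depth was estimated from steps between low values of 2172 single-transcript genes of at least 1500 bases. From 64.5% (MG15) to 78.3% (MG16) of low values lay within 0.25 of a whole fragment, at a depth chosen to make that share high. Evenly spread values can lie that near too, and the share they would reach was not tested. The estimate is therefore rough, most of all for MG15, and no counting interval is given. Of all summed FPKM, small RNA names held 54.8% and 73.5% in the cKO and 88.5%, 65.0% and 72.3% in the control. Across genes, libraries correlated at 0.958 to 0.984. Positions and transcripts are from GENCODE M21 and promoters from RefSeq. In GENCODE, Dnmt3a overlaps Dnmt3aos and Dnmt3l overlaps Aire, both listed at 0, and other overlapping genes of Dnmt1, Dnmt3b, Tet1, Tet2 and Tet3 are noncoding. Figures were drawn with matplotlib 3.10.9, and tables were handled with pandas 2.3.3 and numpy 2.4.6 under Python 3.11.15.

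The members, the lists and the alternatives (pseudocount, filter, scaling, eBayes trend, small RNA names, each library left out) were chosen with earlier results of these data known. Named genes were the members, the genes of the partner and donor lists past an unadjusted p under 0.05 with over 1.5-fold or else the 3 most abundant of a list, 3 cycling and 3 tissue genes, and the 5 profiles nearest to Uhrf1. Other genes were named after their values were seen. The values of 1 gene of the donor list and the sequence of the deleted exon are not reported here.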

Additional observations from a re-analysis of the deposited data

How the results depend on the processing

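Uhrf1 kept its direction and its call under every alternative that used all 5 libraries, with log2 fold changes of -2.05 to -1.68 and adjusted p of 0.00501 to 0.0453 (limma), and ranged from -2.25 to -1.82 with 1 library left out. With any 1 control library left out, 1 of the 9 genes was called, while that call rested on both cKO libraries, as given above. The number called in the partner and donor lists, cell markers not counted, was 0 to 1. Without the eBayes trend that list count was 0, since Gadd45g had an adjusted p of 0.0587. Small differences changed sign with 1 library left out, the log2 fold change being -0.38 to 0.17 for Uhrf2, -0.095 to 0.20 for Dnmt1, -0.31 to 0.17 for Dnmt3b, -0.14 to 0.17 for Tet2, -0.22 to 0.18 for Mki67 and -0.19 to 0.037 for Tubb3. Shares in percentage points did so too, at -7.70 to 0.232 for Dnmt1, -0.226 to 8.09 for Dnmt3a and -0.760 to 1.83 for Tet1. Scaling to a common median gave -0.0066 for Tet2 and -0.0158 for Mki67, and quantile normalization gave 0.30 for Tubb3. The cause was not tested. Over all genes, 161 were higher and 24 lower, against 32 and 2 without MG18, 43 and 4 without MG19, 132 and 10 without MG15, 121 and 12 without MG16, and 98 and 14 at a mean of at least 1 FPKM. Pathway genes past an unadjusted p with over 1.5-fold numbered 2, and 1 to 6 across the alternatives. With 1 cKO library left, its spread is assumed to equal that of the controls. No paired analysis was possible because the labels pair no cKO embryo with a control embryo. Depth limits Dnmt3b and the cKO values of Uhrf1 most.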

Other observations

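Several genes of the partner and donor lists separated the groups without passing the adjusted threshold, and those given here were picked with their values in view. The mitochondrial serine hydroxymethyltransferase Shmt2 was measured at 13.9 and 20.7 FPKM in the cKO, against 12.1, 12.4 and 11.3 FPKM in the control (log2 fold change 0.50, adjusted p = 0.390, limma). Cxxc5, a CXXC-domain protein, was at 16.6 and 14 FPKM in the cKO, against 10.1, 11.5 and 11.2 FPKM in the control. Idh1, which makes the 2-oxoglutarate that TET enzymes consume, was at 216 and 232 FPKM in the cKO, against 307, 265 and 373 FPKM in the control. The share of all genes with groups that do not overlap was 30.8%.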
